A study of Mus musculus with 6 samples.

Results

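Autophagy and mitophagy genes were followed in newborn mouse lenses with and without heat shock transcription factor 4 (Hsf4). The 10 genes were chosen by name and were Ulk1, Becn1, Atg5, Atg7, Map1lc3b, Sqstm1, Bnip3, Bnip3l, Fundc1 and Pink1. Every probe set whose platform annotation gives 1 of these symbols alone was taken, which gave 21 of 22626 tested probe sets and 9 of 12393 genes. Bnip3l has no such probe set, because the 3 probe sets that list it also list a second symbol, and it is not reported further. The series holds 6 arrays, 3 for wild-type lenses and 3 for lenses without Hsf4 (HSF4 null), and all mice were newborn and of strain ICR. For every array 50 ng of total RNA was amplified. No separation of epithelium from fibers is described, and the labels do not say how many animals gave each sample. In such bulk samples fewer cells of a type and less RNA per cell cannot be told apart.

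Autophagy encloses part of the cytoplasm in a double membrane and delivers it to the lysosome. The ULK1 kinase starts the process, the Beclin 1 complex makes the lipid that marks the growing membrane, and the ATG5 and ATG7 conjugation system attaches LC3 proteins to it. Cargo receptors such as p62, encoded by Sqstm1, bind LC3. Mitophagy is the removal of mitochondria by this route, either through receptors in the outer mitochondrial membrane (BNIP3, BNIP3L and FUNDC1) or through the kinase PINK1. Lens fiber cells lose their nuclei, mitochondria and other organelles as they mature. Bnip3 is also a known target of the hypoxia-inducible factors, which bind a short core that can read ACGTG.

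Promoter sequences were at hand for 8 of the 10 genes, from RefSeq on GRCm38.p6, as windows of 250 bases before and 50 bases after the annotated start. The sequence of Bnip3 is shown because it was the only gene of the group past the test. It is the 250 bases upstream of the start on the minus strand, chr7:138909507-138909756, with the matches to ACGTG on either strand in capitals, which overlap as CACGTG.
Bnip3: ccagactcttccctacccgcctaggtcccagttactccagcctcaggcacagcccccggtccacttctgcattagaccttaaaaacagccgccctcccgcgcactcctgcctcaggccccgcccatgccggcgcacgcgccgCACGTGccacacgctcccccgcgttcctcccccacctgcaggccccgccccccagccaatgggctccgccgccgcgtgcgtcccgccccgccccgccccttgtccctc
The palindrome CACGTG begins 108 bases before the start of Bnip3. It was found in 3 of the 8 windows, those of Bnip3, Atg5 and Atg7, and in 7.15% of all 32851 promoter windows. The 3 stretches are set side by side for comparison, with CACGTG in capitals.
Bnip3, chr7:138909599-138909624, minus strand: gcacgcgccgCACGTGccacacgctc
Atg5, chr10:44268315-44268340, plus strand: gagcgcttgcCACGTGgtcttggtga
Atg7, chr6:114670954-114670979, plus strand: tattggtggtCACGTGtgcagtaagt
ACGTG on either strand, which every CACGTG contains, was found in the same 3 windows and in 19.6% of all windows. The paired heat shock repeats GAANNTTC and TTCNNGAA, searched on both strands, were in 0 of the 8 windows and in 15.1% of all windows. Other forms of the core that hypoxia-inducible factors bind were not searched or marked. A match is a description of letters and was not tested for binding. Atg5 and Atg7 share the palindrome with Bnip3, but neither passed the test that follows.

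The targeted gene checked the labels. On the log2 scale Hsf4 was at 9.09, 9.39 and 9.56 on the wild-type arrays and at 4.26, 4.09 and 3.78 on the Hsf4-null arrays. Whether this probe set lies in the deleted part of the gene was not determined here, so loss of the probed sequence and loss of the transcript cannot be told apart. Intensities were normalized by the authors with RMA, a procedure that removes background, equalizes the arrays and summarizes several probes into 1 value. Each probe set was compared between groups on the log2 scale with limma, a linear model that shares its estimate of spread over all probe sets, and a call is a Benjamini-Hochberg adjusted p under 0.05 over all of them. Where a gene has several probe sets it is represented by the brightest, and probe sets with a mean under 5.22, the lowest array median, are called dim. Of the 21 member probe sets, 16 were above that median and 5 were dim, and no probe set was removed for low values. With 3 arrays against 3, their number limits the precision, and an exact permutation test of a single value cannot go below 0.1.

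Bnip3 was higher in Hsf4-null lenses, and none of the other 8 measured genes passed the test. By their brightest probe sets 1 of 9 genes was called higher, where 0.775% of all genes were, and 0 of 9 were called lower, where 2.11% of all genes were. At an unadjusted p under 0.05 from limma 1 of the 9 genes, Map1lc3b, was lower, or 11.1%, where 8.38% of all genes were, and the methods' t-test also gave 1 lower gene before adjustment and 0 after it. The median log2 fold change of the 9 genes was -0.02, and that of all genes was 0.01. The 8 genes other than Bnip3 had log2 fold changes from -0.30 for Map1lc3b to 0.13 for Sqstm1. By these brightest probe sets the 95% intervals reached down to -0.53 for Map1lc3b, a 1.44-fold decrease, and up to 0.42 for Sqstm1, a 1.34-fold increase. Less bright probe sets allowed more, since those of Atg5 had intervals that reached down to -0.66 and up to 0.78.

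**Figure D1:**
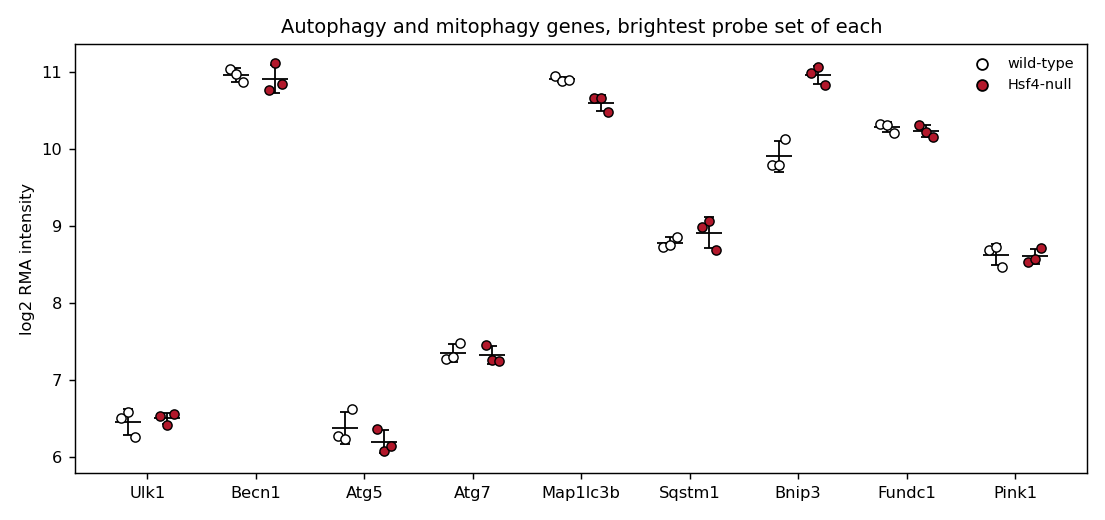
Log2 RMA intensity (vertical axis) of the brightest probe set of each of the 9 measured genes by array, with 3 open points for wild-type lenses, 3 filled points for Hsf4-null lenses and bars for the mean ± SD. The Hsf4-null arrays lie above all wild-type arrays for Bnip3 and below them for Map1lc3b, and the groups overlap for the other 7 genes. Heights of different genes are not comparable, because probe sets differ in their response.

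Bnip3 encodes a receptor in the outer mitochondrial membrane that binds LC3 and recruits mitochondria to autophagosomes. On the log2 scale its intensity was 9.79, 9.78 and 10.13 on the wild-type arrays and 10.98, 11.06 and 10.83 on the Hsf4-null arrays. Each Hsf4-null array was thus brighter than every wild-type array, although wild-type replicate 3 stood above the other two. The means were 9.90 ± 0.20 (SD, n = 3) and 10.95 ± 0.12 (SD, n = 3). This is a 2.08-fold increase, with a 95% interval from 1.69-fold to 2.55-fold (limma adjusted p = 0.00502). The gene has a single probe set, so no second measurement on these arrays bears on it. Leaving out each array in turn kept the log2 fold change between 0.997 and 1.17, with an adjusted p from limma of 0.00519 to 0.0295. The call was lost by the methods' t-test once adjusted (adjusted p = 0.0971), a test in which each probe set has only its own spread.

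Fundc1, another mitophagy receptor of the outer membrane, stayed close between the groups. Its brightest probe set was at 10.32, 10.31 and 10.21 in wild-type and at 10.31, 10.22 and 10.15 in Hsf4-null lenses. The arrays overlapped, and the log2 fold change was -0.05 (95% interval -0.27 to 0.17, limma adjusted p = 0.846). A second, less bright Fundc1 probe set had a log2 fold change of -0.07 (95% interval -0.39 to 0.25). Fundc1 lies on the X chromosome, and Xist, the RNA that silences an X chromosome in female cells, was unequal between arrays. Xist was high in wild-type replicate 1 and Hsf4-null replicate 1, at 10.50 and 9.51, and between 5.24 and 5.84 on the other 4 arrays. Eif2s3y, a gene of the Y chromosome, was at 3.40, 10.48 and 10.81 in wild-type and at 4.35, 10.28 and 3.20 in Hsf4-null lenses. The brightest probe set of Kdm5d, also on that chromosome, was high on the same arrays. Hsf4-null replicate 3 was thus low for Xist and for both Y-linked genes. What an unequal sex of the animals contributes to Bnip3 or any other gene was not tested. On the pair with high Xist, Fundc1 was at 10.32 and 10.31.
The change of Bnip3 was set directly against that of Fundc1, a comparison chosen after the values were seen. The log2 value of Bnip3 minus that of Fundc1 averaged -0.38 ± 0.26 (SD, n = 3) over the wild-type arrays and 0.73 ± 0.10 (SD, n = 3) over the Hsf4-null ones, with no overlap. The 2 groups differed by 1.11, at p = 0.1 by a two-sided exact permutation test, the smallest p that 3 arrays against 3 allow.

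Pink1 encodes the kinase that accumulates on damaged mitochondria and recruits Parkin. Its only probe set was at 8.68, 8.72 and 8.47 in wild-type lenses and at 8.52, 8.57 and 8.71 in Hsf4-null lenses. The arrays of the groups overlapped, and the log2 fold change was -0.02 (95% interval -0.28 to 0.24, limma adjusted p = 0.952).

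**Figure D2:**
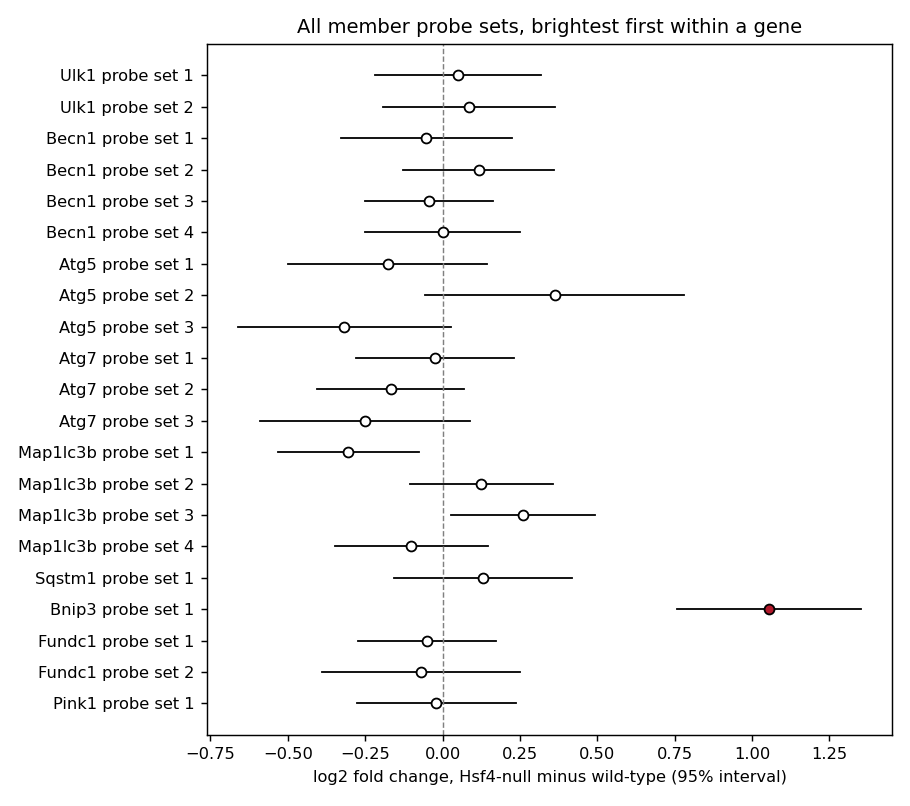
Log2 fold change, Hsf4-null minus wild-type (horizontal axis), of all 21 probe sets of the 9 measured genes, ordered within a gene from bright to dim. Each estimate is from limma on 3 arrays against 3, drawn with its 95% interval, and the filled point, Bnip3 at 1.05, is the only one with an adjusted p under 0.05. Probe sets of Map1lc3b and of Atg5 lie on both sides of 0.

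Map1lc3b encodes LC3B, the protein that is coupled to lipid on the autophagosome and marks it. Its 4 probe sets did not move together. The brightest was at 10.94, 10.87 and 10.89 in wild-type and at 10.65, 10.66 and 10.48 in Hsf4-null lenses, so that every Hsf4-null array was lower. The log2 fold change of this probe set was -0.30 (SE 0.10, the standard error of the fitted change, limma adjusted p = 0.192). The third brightest went the other way, at 7.24, 7.33 and 7.44 in wild-type and at 7.68, 7.53 and 7.59 in Hsf4-null lenses. Here every Hsf4-null array was higher, with a log2 fold change of 0.26 (SE 0.10, limma adjusted p = 0.273). The second brightest overlapped between groups, with a log2 fold change of 0.12 (SE 0.10), and the remaining probe set, at -0.10 (SE 0.11), was dim. Averaged over its 4 probe sets, Map1lc3b had a log2 fold change of -0.01. Such separate groups are common on these arrays, since 9.37% of all probe sets had every Hsf4-null array higher and 11.7% had every one lower. Among the 21 member probe sets 2 were of the first kind and 1 of the second. By limma 1 of the 21 was called higher and 0 lower, beside 0.72% and 1.94% of all probe sets, and at an unadjusted p under 0.05 there were 2 higher and 1 lower, beside 6.83% and 8.55%. Map1lc3b lies on chromosome 8 with Hsf4, with 120 measured genes between them in the gene order of GRCm38.p6, and what this contributes was not tested.

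Sqstm1 encodes p62, a receptor that carries ubiquitinated cargo to LC3. Its probe set was at 8.72, 8.75 and 8.86 in wild-type lenses and at 8.98, 9.06 and 8.68 in Hsf4-null lenses. Replicates 1 and 2 of the Hsf4-null group were above all wild-type arrays and replicate 3 was below them. The log2 fold change was 0.13 (95% interval -0.16 to 0.42, limma adjusted p = 0.674), less than the SD of 0.20 within the Hsf4-null group.

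The genes that start and build the autophagosome did not pass. Ulk1, the initiating kinase, was at 6.51, 6.58 and 6.26 in wild-type and at 6.52, 6.42 and 6.56 in Hsf4-null lenses. Its arrays overlapped, with a log2 fold change of 0.05 (SE 0.12), and its second probe set, which was dim, had 0.09 (SE 0.12). Becn1, the regulatory subunit of the class III lipid kinase complex, has 4 probe sets, of which 2 were bright. The brighter of these was at 11.04, 10.97 and 10.87 in wild-type and at 10.77, 11.11 and 10.84 in Hsf4-null lenses, a log2 fold change of -0.05 (SE 0.12). The other bright one gave 0.12 (SE 0.10), and both dim ones had intervals that included 0. All 4 probe sets of Becn1 overlapped between the groups.
Atg7 encodes the enzyme that activates ATG12 and LC3 for conjugation. Its brightest probe set was at 7.26, 7.29 and 7.48 in wild-type and at 7.45, 7.26 and 7.25 in Hsf4-null lenses, with a log2 fold change of -0.02 (SE 0.11). The other Atg7 probe sets gave -0.17 (SE 0.10) and, for the dim one, -0.25 (SE 0.15). Atg5, which is joined to ATG12 in the same pathway, had 3 probe sets with log2 fold changes of -0.18 (SE 0.14), 0.36 (SE 0.18) and -0.32 (SE 0.15). Their directions differed and every interval included 0. The brightest Atg5 probe set was at 6.27, 6.23 and 6.62 in wild-type lenses and at 6.36, 6.07 and 6.14 in Hsf4-null lenses, where wild-type replicate 3 was above all the rest.

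The genes whose values ran most like those of Bnip3 were looked for among 6960 other genes above the lowest array median. Over the 6 arrays the highest Pearson correlations were with Gyg (0.997), Idua (0.995) and Fip1l1 (0.994). Gyg encodes glycogenin, the primer of glycogen synthesis, Idua a lysosomal hydrolase and Fip1l1 a factor of polyadenylation. All 3 were higher on every Hsf4-null array, by log2 fold changes of 1.65 (SE 0.17), 1.74 (SE 0.18) and 0.91 (SE 0.11). With 6 arrays in 2 groups these correlations mostly reflect the difference between the groups, and they are given as a description.

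The wider autophagy pathway was counted in the same way. Of 82 further genes listed by role, 67 were measured, and 1 was called higher, 1 lower and 65 did not pass, beside 0.775% and 2.11% of all genes. Their median log2 fold change was -0.04. At an unadjusted p under 0.05 from limma 3 were higher and 9 lower, 4.48% and 13.4% of the list, where 7.34% and 8.38% of all genes were. Every Hsf4-null array lay above every wild-type array for 6 of the 67 and below for 10, or 8.96% and 14.9%, against 10.1% and 11.5% of all genes.
Gabarapl1, an LC3 relative that is likewise coupled to lipid on autophagosomes, was the gene called lower. Its brightest probe set was at 11.42, 11.65 and 11.64 in wild-type and at 10.96, 11.02 and 10.63 in Hsf4-null lenses. Every Hsf4-null array was lower, and the log2 fold change was -0.70, a 1.63-fold decrease (SE 0.13, limma adjusted p = 0.037). A second Gabarapl1 probe set was also lower on every Hsf4-null array, by a log2 fold change of -0.61 (SE 0.13, limma adjusted p = 0.0615). The call was lost without any one of the 6 arrays, at an adjusted p from limma of 0.0513 to 0.14.
The other LC3 relatives on the list did not pass. Map1lc3a had a log2 fold change of 0.64 (SE 0.24), Gabarap 0.11 (SE 0.10) and Gabarapl2 -0.02.
Trp53inp2, which binds LC3 family proteins and promotes autophagosome formation, was the gene called higher. It was at 9.70, 9.87 and 9.57 in wild-type and at 10.42, 10.16 and 10.48 in Hsf4-null lenses. Every Hsf4-null array was higher, and the log2 fold change was 0.64, a 1.56-fold increase (SE 0.13, limma adjusted p = 0.0448). Without any single array other than Hsf4-null replicate 2 the adjusted p from limma was 0.0756 to 0.162.
By role, 0 genes passed among 4 further members of the initiation complex, 7 of the lipid kinase complex, 8 of membrane supply, 6 of conjugation, 4 cargo receptors, 12 mitophagy genes, 5 receptors of the endoplasmic reticulum route and 5 genes of fusion with the lysosome. At an unadjusted p under 0.05 from limma, 5 of these 51 genes were lower, or 9.8%, beside 8.38% of all genes, and 0 were higher, beside 7.34%. The LC3 relatives and the regulators, which are not among the 51, held both called genes and all 3 that were higher at that threshold. The 0 higher among the 51 thus follows from leaving out these roles and is no result about the 51. Of the genes left out, 1 of 4 LC3 relatives and 3 of 12 regulators were lower at that threshold. The 12 measured mitophagy genes beside the members had a median log2 fold change of -0.15, from -0.48 to 0.16. Of these 12, 3 were lower at that unadjusted threshold, or 25%, and 0 were higher, beside 8.38% and 7.34% of all genes. Every Hsf4-null array was lower for 3 of the 12, beside 11.5% of all genes, and every one higher for 0, beside 10.1%. These counts of lower genes were not particular to mitophagy. The 12 measured regulators also had 3 lower by each of these measures, with 2 higher by each.

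**Figure D3:**
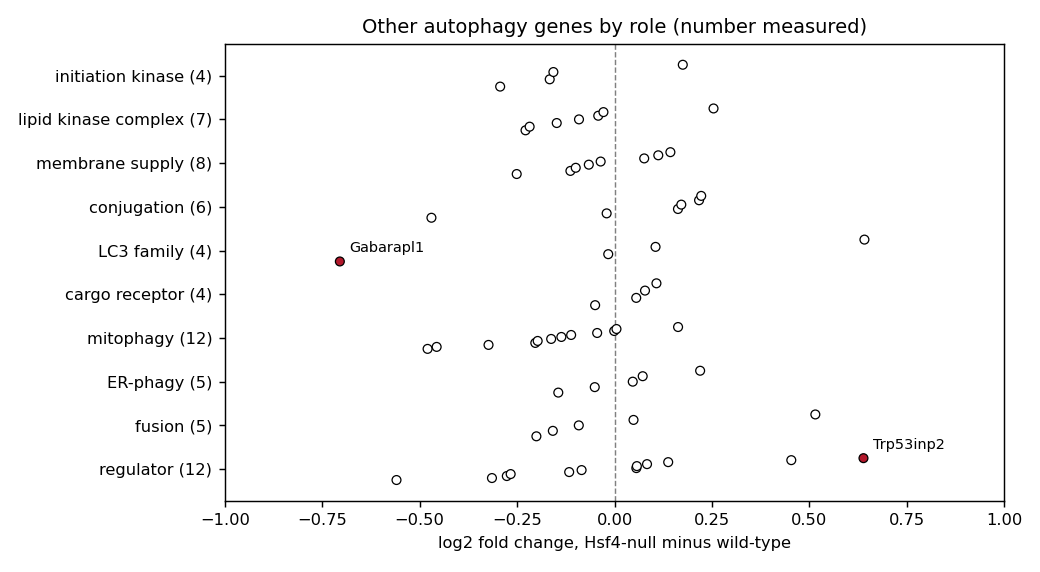
Log2 fold change, Hsf4-null minus wild-type (horizontal axis), of 67 further autophagy genes grouped by role on the vertical axis, each point the limma estimate of the brightest probe set from 3 arrays per group. Filled points passed at an adjusted p under 0.05 and are Gabarapl1 at -0.70 and Trp53inp2 at 0.64. Within a role, points are spread vertically only to be seen apart.

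Targets of the hypoxia-inducible factors were listed because Bnip3 is one of them, together with regulators of the pathway. Of 26 measured genes without Bnip3, 22 targets and 4 regulators, 22 did not pass. Among the targets 2 were called higher and 2 lower, where 0.775% and 2.11% of all genes were, and the median log2 fold change of the 26 was 0.01. At an unadjusted p under 0.05 from limma 3 of the 22 targets were higher and 3 lower, 13.6% each, where 7.34% and 8.38% of all genes were. Every Hsf4-null array was higher for 5 of the 22 and lower for 3, or 22.7% and 13.6%, against 10.1% and 11.5% of all genes. Pdk1, a kinase that limits entry of pyruvate into mitochondrial oxidation, was at 9.61, 9.12 and 9.35 in wild-type and at 10.33, 10.20 and 10.41 in Hsf4-null lenses. Its groups did not overlap, and the log2 fold change was 0.95 (SE 0.14, limma adjusted p = 0.0128). Its second probe set gave 0.70 (SE 0.17, limma adjusted p = 0.0886), and without Hsf4-null replicate 3 the adjusted p of the first was 0.0652.
Aldoa, a glycolytic aldolase, rose by a log2 fold change of 0.55 (SE 0.10, limma adjusted p = 0.0258), and all 4 of its probe sets passed, from 0.50 to 0.56. Without any one array the adjusted p from limma of the brightest was 0.0682 to 0.1.
Ndrg1, a stress-responsive gene, was at 12.52, 12.54 and 12.73 in wild-type and at 11.84, 11.96 and 11.66 in Hsf4-null lenses. Its log2 fold change by the brightest probe set was -0.78 (SE 0.12, limma adjusted p = 0.0133). All 5 probe sets of Ndrg1 passed, with log2 fold changes from -1.78 to -0.78, the smallest change being that of the brightest. For the brightest the call was lost when wild-type replicate 2 (limma adjusted p = 0.0525), wild-type replicate 3 (0.0506) or Hsf4-null replicate 3 (0.054) was left out.
P4ha2, a subunit of collagen prolyl hydroxylase, fell by 0.76 (SE 0.13, limma adjusted p = 0.0286). Without any single array other than Hsf4-null replicate 1 its adjusted p from limma was 0.0575 to 0.119. Hif1a itself had a log2 fold change of -0.23 (95% interval -0.52 to 0.05, limma adjusted p = 0.43), and 0 of 4 measured regulators of the pathway passed, also at an unadjusted p under 0.05.

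**Figure D4:**
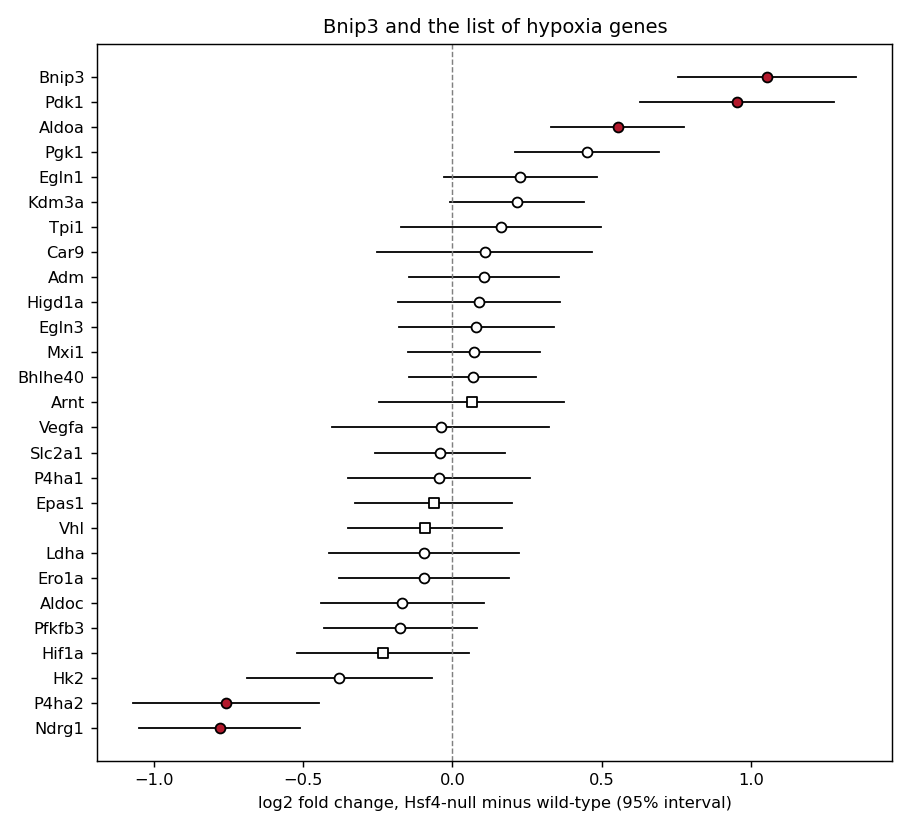
Log2 fold change, Hsf4-null minus wild-type (horizontal axis), of Bnip3 and 26 listed hypoxia genes, with limma 95% intervals from 3 arrays per group. Circles are targets, squares regulators, and filled points passed at an adjusted p under 0.05. Bnip3, Pdk1 and Aldoa are to the right of 0, and Ndrg1 and P4ha2 to the left.

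Transcripts for mitochondria themselves were listed as well. Of 23 listed genes for import, outer membrane, matrix enzymes, biogenesis and dynamics, all measured, 0 were called higher and 1 lower, beside 0.775% and 2.11% of all genes. At an unadjusted p under 0.05 from limma 0 were higher and 2 lower, or 8.7% lower, near the 8.38% of all genes, of which 7.34% were higher. The methods' t-test after adjustment gave 0 and 0. Tfb1m, a methyltransferase of mitochondrial ribosomal RNA, was the gene called lower, with a log2 fold change of -0.77 (SE 0.15, limma adjusted p = 0.0424). A second probe set of Tfb1m, which was dim, gave -0.79 (SE 0.20, limma adjusted p = 0.0959). The call was lost with median centring (adjusted p = 0.0535), with renewed quantile normalization (0.0659) and without any single array other than Hsf4-null replicate 2 (0.0804 to 0.137). Tomm20, a receptor of the import complex, had a log2 fold change of -0.03 (95% interval -0.27 to 0.22), Vdac1, the outer membrane channel, 0.02 (-0.19 to 0.23) and Cs, citrate synthase, 0.10 (-0.13 to 0.33).

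Markers of the lens and of other cell types were read beside these results. Crystallin and membrane markers of the lens were strong, with Cryaa at 14.03 and Mip at 13.20 in wild-type lenses, while the probe set for the epithelial factor Foxe3 was dim, at 4.18 and 3.80. The summed intensity of 7 lens markers ran from 54162 to 54570 in wild-type and from 43467 to 46371 in Hsf4-null lenses, with Bfsp1 the single marker called, with a log2 fold change of -1.65 (SE 0.10, limma adjusted p = 0.000131). The sum of 6 mesenchyme markers was 1535 to 1701 in wild-type and 1687 to 2260 in Hsf4-null lenses, so the sums overlapped. Col1a1 and Twist1, 2 of the 6, were called higher, where 0.775% of all genes were, and Twist1 was called by a dim probe set. The other 4 mesenchyme markers had log2 fold changes from -0.06 for Pdgfra to 0.23 for Lum and did not pass. Vascular markers, 6 in all, summed to 785 to 944 and to 966 to 1033, so the groups did not overlap, although limma called 0 of them. At an unadjusted p under 0.05 from limma 2 vascular markers were higher and 0 lower, where 7.34% and 8.38% of all genes were. The 10 macrophage markers (506 to 1339 and 968 to 1842), the 5 pigment cell markers (294 to 1024 and 834 to 1858) and the 4 retina markers (86.6 to 156 and 92.4 to 184) overlapped between the groups. Limma called none of these at an adjusted p under 0.05, but single markers differed by as much as or more than Bnip3. Lyz2, a lysozyme of macrophages, was higher on every Hsf4-null array, with a log2 fold change of 1.68 (SE 0.43, limma adjusted p = 0.103), as was Aif1, which was dim, with 0.52 (SE 0.11). At an unadjusted p under 0.05 from limma 3 of 10 macrophage, 2 of 5 pigment cell and 0 of 4 retina markers were higher, and 0 of each were lower. Of all genes 7.34% were higher and 8.38% lower at that threshold. The pigment cell markers Tyrp1, Dct and Pmel, which take part in melanin formation, had log2 fold changes of 1.30 (SE 0.46), 1.30 (SE 0.70) and 1.27 (SE 0.45), with arrays that overlapped. All 4 erythroid markers were dim, with sums of 74.0 to 88.3 and 102 to 121 that did not overlap. Limma called 0 of the 4, and at an unadjusted p under 0.05 from limma 2 were higher and 0 lower, where 7.34% and 8.38% of all genes were. The part of these cell types in the change of Bnip3 was not tested.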

How the data were processed

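RNA of 3 wild-type and 3 Hsf4-null newborn mouse lenses was hybridized on Affymetrix mouse genome arrays. The authors deposited RMA-normalized intensities, not in log form, for each array, with the RMA version not given in the sources consulted. Log2 was taken, 64 array controls of 22690 probe sets were left out, and 22626 probe sets entered lmFit and eBayes of limma 3.58.1 (R 4.3.3) as 2 groups with no block. Scripts in Python 3.11.15 with SciPy 1.17.1 counted lists and ran the exact permutation test. Symbols came from the platform annotation (20380 probe sets with 1 symbol, 691 with several, 1555 unnamed) and were updated for 20351 through the gene identifier to RefSeq of GRCm38.p6.

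The members and gene lists were chosen with earlier results of these data known. The rule named every member, up to 4 called genes per list and direction, and the 3 genes most like Bnip3. The remaining LC3 relatives, Hif1a, Xist, Eif2s3y, Kdm5d, Tomm20, Vdac1, Cs and the markers named were added after values were seen. A planned comparison of Bnip3 with Bnip3l could not be made, since no probe set carries Bnip3l alone. Alternatives were the methods' t-test, variance and weight settings, the replicate block, scaling, removal of dim probe sets, a fold of at least 1.5, the mean of a gene's probe sets and leaving out each array. The methods' SAM step was not run. Labels do not say whether replicates are separate animals, while the methods call them biological triplicates.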

Additional observations from a re-analysis of the deposited data

How the results depend on the processing

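The increase of Bnip3 kept its direction in all 16 alternatives and a p under 0.05 in 15 of them. Of these, the minimum fold and the mean of a gene's probe sets could hardly fail. Bnip3 changed by more than that fold and has a single probe set. The exception was the methods' t-test once adjusted (log2 fold change 1.05, adjusted p = 0.0971), where 0 members were called higher. Without adjustment that test is among the 15, although an unadjusted p is no call as defined above. It also put 1 member, Map1lc3b, lower at an unadjusted p under 0.05. The 8 other members kept their lack of a call in every other alternative, whatever their sign, while leaving out an array gave the log2 fold change of Bnip3 as 0.997 to 1.17, that of Hsf4 as -5.43 to -5.17, and that of Bnip3 minus Fundc1 as 1.03 to 1.26.

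The 602 probe sets called became 2912 by the methods' t-test unadjusted, 85 by that test adjusted and 382 with the replicate block, and 321 to 562 without 1 array, the counts moving most without wild-type replicate 2 (335), wild-type replicate 3 (358) and Hsf4-null replicate 3 (321). By the t-test unadjusted, adjusted, and by the block, the autophagy list had 3, 0 and 0 genes higher (0 to 1 without 1 array) and 6, 0 and 0 lower (0 without any 1 array). The hypoxia list had 4, 0 and 1 higher, 1 with a minimum fold of 1.5 and 0 to 1 without 1 array, and 0 lower by the adjusted t-test, 1 by the block and 0 to 2 without 1 array. The mitochondria list had 2, 0 and 0 lower, 0 each under median centring and renewed quantile normalization and 0 to 1 without 1 array. Same-numbered arrays did not deviate together (correlations of deviations 0.25, -0.21 and -0.08), so the replicate block rests on a shared number alone; Bnip3 had an adjusted p of 0.0361 from limma with it. The planned contrast of Bnip3 with Bnip3l was not run. A single probe set for Bnip3 and detection calls not used here limit what the arrays can show.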
